A study of Mus musculus with 21 samples.

Results

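The comparison described here sets vehicle-treated traumatic brain injury (TBI) at day 28 against sham surgery. Its members were the 3 samples titled as PBS-treated 28-day TBI brain and the 3 titled as sham brain, or 6 of the 21 samples of the series, each from a separate mouse. All were male C57BL6J mice, and no transgene or gene deletion is named for any group. PBS TBI day 28 mice were 16 weeks old at collection. They had received a controlled cortical impact, in which a piston strikes the exposed cortex through a craniotomy on the right side, and were given PBS intravenously shortly after injury and again intraperitoneally in the later weeks. Sham mice were 12, 13 and 16 weeks old, 1 mouse of each age, had anesthesia and a scalp incision without a craniotomy, and are labelled as vehicle-treated. PBS TBI day 3 and PBS TBI day 7 mice, also 3 samples each, were 12 and 13 weeks old, had the same injury and the intravenous PBS alone, and are used below only to place day 28 in time. Age and repeated dosing therefore run with the day contrasts and cannot be told apart from time. The remaining 9 samples, from injured mice given the complement inhibitor CR2-Crry, entered only the shared estimate of the spread. RNA came from the perfused right hemisphere, the injured side, as bulk tissue, so more cells of a type and more RNA per cell cannot be told apart. The sham procedure also leaves the effects of craniotomy, of the impact and of repeated PBS dosing inseparable.

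After a contusion, microglia and astrocytes around the lesion become reactive and take up debris and myelin, while monocytes enter from the blood. Complement is a protein cascade that tags material for removal. Its recognition molecule C1q is made in the brain largely by microglia, and fragments of C3 and C5 act on receptors carried by myeloid cells. Neurons respond to synaptic activity within minutes by transcribing immediate early genes such as Fos, Egr1 and Arc, whose level therefore follows recent activity.

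Expression was measured with the nCounter Mouse Neuroinflammation panel, which counts RNA molecules through hybridized color-coded probes without amplification. The panel table held 757 probes, of which 740 exceeded a normalized signal of 20 in at least 3 of 21 samples and were tested. A gene symbol was paired with 703 probes, and 53 of the tested probes had none. Signals were whole multiples of a per-sample step for at least 99.87% of probes, which gave totals of 824317 to 908386 counted molecules in PBS TBI day 28 samples and 900958 to 1023041 in sham samples. The markers of brain tissue were present: 4 of 4 tested neuron markers, 3 of 3 astrocyte markers, 2 of 2 oligodendrocyte markers and 3 of 3 microglia markers were measured well above the filter. Of the markers of other cells, none of the 4 listed for neutrophils was present by name. The B cell marker on the panel, Ms4a1, lay below the filter. Other cells were represented by 4 tested T and NK cell markers, by Ccr2 and Cd163 of monocytes and border macrophages, and by the choroid plexus gene Ttr. Ttr lay well above the filter, at 3154 to 3219 in PBS TBI day 28 mice and 2152 to 3162 in sham mice. Correlation of log2 values across probes, which share a library and are not replicates, was 0.993 to 0.996 between PBS TBI day 28 samples and 0.988 to 0.995 between sham samples.

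At day 28 the injured hemisphere still differed widely from sham. Limma called 389 of 740 probes (52.6%) at a Benjamini-Hochberg adjusted p under 0.05, the criterion behind "called", "rose" and "fell" below. On the authors' scaling 329 probes rose (44.5% of those tested) and 60 fell (8.11%), and 87 of the risen probes changed over 2-fold, 26 over 4-fold and 6 over 8-fold, against 6 fallen probes over 2-fold. The 3 samples of a group lay beyond all 3 of the other for 458 probes (61.9%), among them 372 of the 389 called. The median signal of a sample averaged 310.6 ± 16.2 in PBS TBI day 28 mice and 247 ± 8.34 in sham mice (SD, n = 3 each), so the median log2 value differed by 0.34. Centring each sample on its own median removed that difference and gave 438 calls, of which 157 rose (21.2% of those tested) and 281 fell (38%), so that 84.6% of calls were higher on the authors' scaling and 35.8% after centring. Under both scalings 157 probes rose and 60 fell, and 20 were called in opposite directions. A change between 0 and 0.34 is therefore higher on 1 scale and lower on the other, so list counts below are given for both. Medians are on the authors' scaling unless stated. Each list count is to be read beside the shares of all tested probes, 44.5% higher and 8.11% lower, or 21.2% and 38% after centring. Nothing in the labels ties same-numbered samples together, so p-values measure the spread between mice. Against the 16-week sham sample alone, the age of the injured mice, 258 probes were called.

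**Figure D1:**
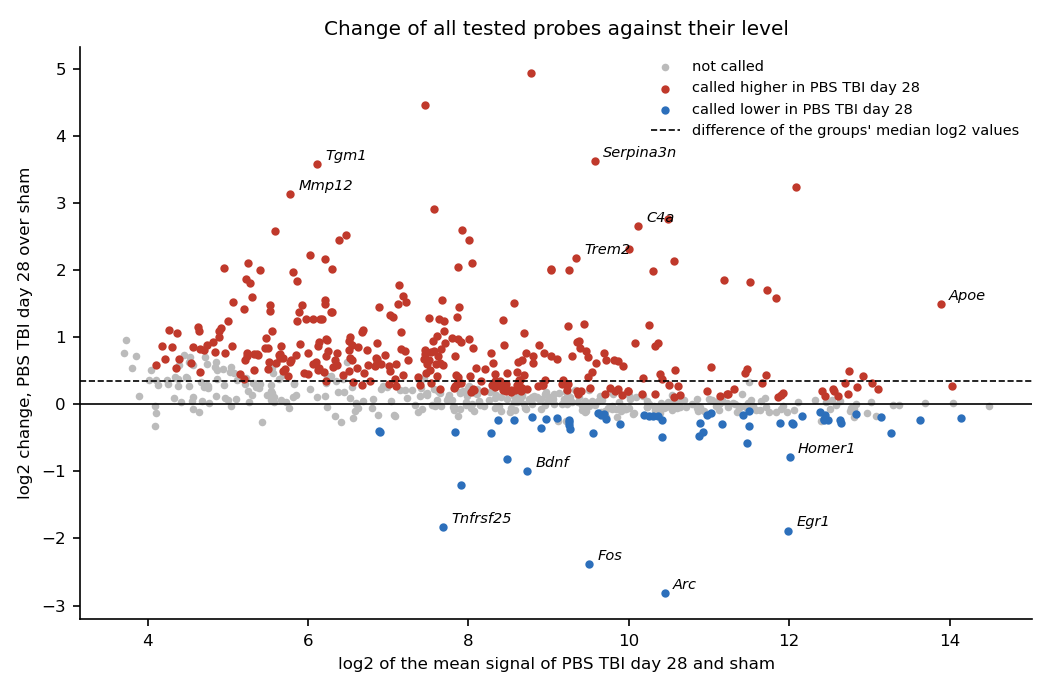
Log2 change of PBS TBI day 28 over sham (vertical axis) against log2 of the mean signal of the 2 groups (horizontal axis) for the 740 tested probes. Red and blue points are the 329 probes called higher and the 60 called lower, and the dashed line at 0.34 is the difference of the groups' median log2 values; the largest falls, of Arc, Fos and Egr1, lay among well expressed genes.

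The highest changes of named genes were those of genes known from reactive glia and myeloid cells. Serpina3n, which encodes a secreted serine protease inhibitor typical of reactive astrocytes, had a signal of 1209, 1831 and 1202 in PBS TBI day 28 mice, against 90.4, 105 and 149 in sham mice. It was 12.3-fold higher, a log2 change of 3.63 ± 0.21 (SE, adjusted p = 1.63e-10). Tgm1, encoding a transglutaminase that cross-links proteins, was measured at 103, 179 and 102 in PBS TBI day 28 mice, against 11.8, 8.74 and 10.9 in sham mice, a log2 change of 3.57 ± 0.27 (SE, adjusted p = 3.05e-09). The sham values of Tgm1 lay near the lower end of the assay, where a few molecules separate samples. Mmp12, a macrophage metalloelastase, was measured at 76.1, 116 and 104 in PBS TBI day 28 mice, against 13.4, 12.2 and 8.37 in sham mice, and Lilrb4a, an inhibitory receptor of myeloid cells, at 281, 459.7 and 269.5 in PBS TBI day 28 mice, against 39.3, 43.7 and 47.7 in sham mice. Their log2 changes were 3.13 ± 0.30 (SE, adjusted p = 1.04e-07) and 2.91 ± 0.22 (SE, adjusted p = 2.92e-09). Further genes among the 15 highest were Bcl2a1a (2.60), an anti-apoptotic BCL2 relative with near-identical copies in mice that a probe may not separate, the metalloreductase Steap4 (2.53) and Mpeg1 (2.32), which encodes a pore-forming protein of macrophages and microglia. PBS TBI day 28 replicate 2 had the highest signal of its group for Serpina3n, Tgm1, Mmp12, Lilrb4a, Steap4 and Mpeg1. The 15 highest were taken only from called probes whose groups did not overlap, as those of 61.9% of all tested probes did not. Lcn2 (2.76), whose groups overlapped, is described below.

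**Figure D2:**
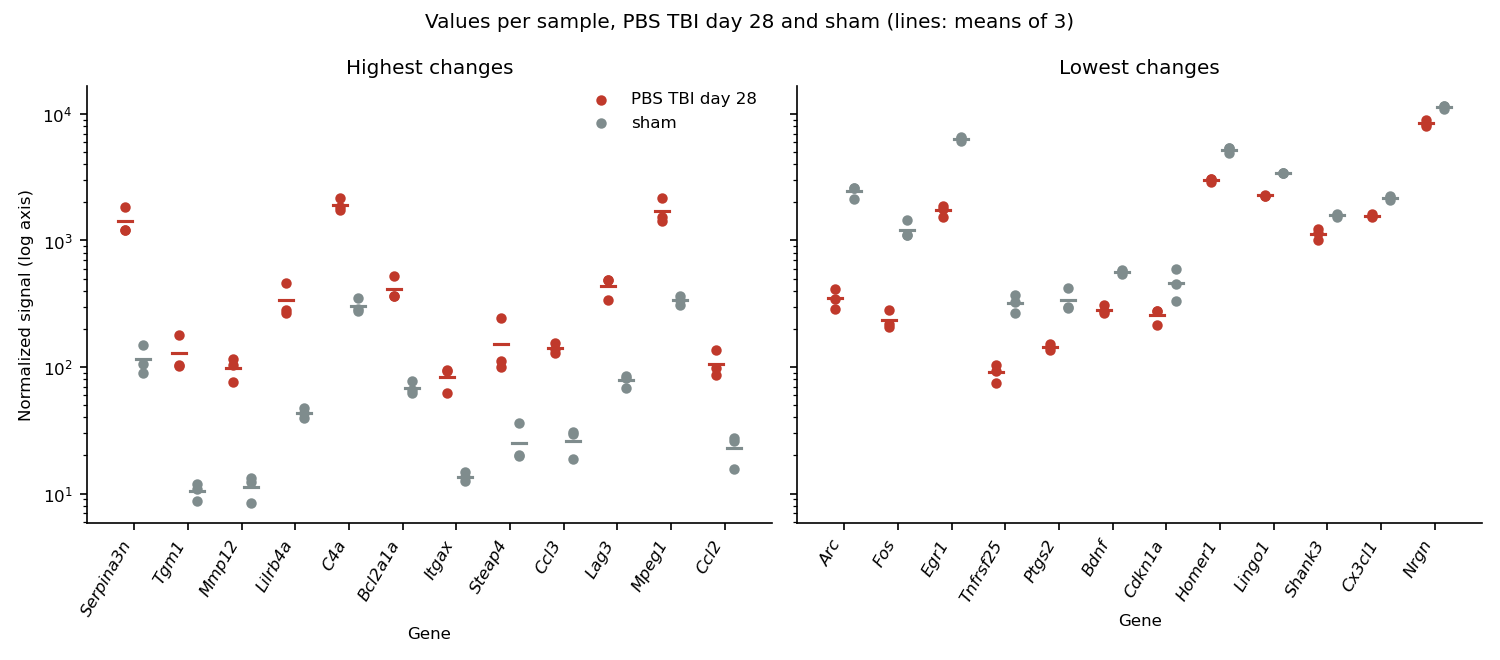
Normalized signal per sample on a log axis, with PBS TBI day 28 in red left of sham in grey and a line at each mean of 3. Plotted are the 12 highest (left) and 12 lowest (right) changes among called genes with a symbol and separate groups. Lcn2 (log2 change 2.76), whose groups overlapped, was left out by that rule. Separation was thus a condition of the choice, and 61.9% of all tested probes had it. The genes run from Serpina3n, with 1209, 1831 and 1202 against 90.4, 105 and 149, to Nrgn, with 8941, 8281 and 8084 against 11589, 10959 and 11582.

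The tested complement genes were higher in injured mice. C6, a further complement gene on the panel, lay below the filter and was not tested. It had 20.3, 14.5 and 7.67 in PBS TBI day 28 mice, against 12.6, 11.4 and 11.7 in sham mice. Among the classical pathway and its regulators, 5 of 5 tested members rose, also after centring, with a median log2 change of 1.71 against 0.21 over all tested probes. C4a, a mouse complement C4 gene, had signals of 1852, 2165 and 1739 in PBS TBI day 28 mice, against 276, 287 and 352 in sham mice. That was 6.3-fold, a log2 change of 2.66 ± 0.13 (SE, adjusted p = 2.17e-11). Mouse C4a and C4b are near-identical copies, so the probe may read both. The 3 chains of C1q, the recognition molecule, were higher in every injured sample: C1qa was measured at 3240.0, 4234 and 3509 in PBS TBI day 28 mice, against 936, 860.1 and 1259.9 in sham mice, with a log2 change of 1.86 ± 0.14 (SE, adjusted p = 2.92e-09). C1qb changed by 1.58 ± 0.14 (SE, adjusted p = 2.77e-08) and C1qc by 1.71 ± 0.12 (SE, adjusted p = 2.24e-09). Serping1, the inhibitor that stops C1, rose too, with 306, 382 and 306 in PBS TBI day 28 mice, against 138, 135 and 127 in sham mice and a log2 change of 1.31 ± 0.15 (SE, adjusted p = 9.74e-07).

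Of the complement receptors 4 of 4 rose, and 3 of 4 did so after centring (median 1.49). Itgax, the alpha chain of complement receptor 4, had the largest change, with 61.9, 92.5 and 93.99 in PBS TBI day 28 mice, against 12.6, 14.9 and 13.4 in sham mice and a log2 change of 2.58 ± 0.18 (SE, adjusted p = 2.13e-09). C3ar1, the receptor for C3a, was measured at 341, 463 and 332 in PBS TBI day 28 mice, against 88.05, 83.04 and 102 in sham mice, a log2 change of 2.04 ± 0.16 (SE, adjusted p = 5.27e-09). Itgam, the alpha chain of complement receptor 3, changed by 0.93 ± 0.14 (SE, adjusted p = 2.37e-05). C5ar1, the receptor for C5a, had 82.2, 88.7 and 74.8 in PBS TBI day 28 mice, against 40.9, 51.6 and 83.7 in sham mice. Its groups overlapped, as sham replicate 3 lay above 2 injured samples. The log2 change of 0.54 ± 0.19 (SE, adjusted p = 0.0209) became 0.20 after centring, which was not called. C5ar1 was not called without PBS TBI day 28 replicate 2 or sham replicate 1 or 2 (log2 change 0.31 to 0.48, adjusted p 0.0715 to 0.16). Without sham replicate 3 the log2 change was 0.83, and against that sample alone it was -0.04 and not called.

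Genes of the disease-associated microglial state, a program of phagocytic and lipid-handling genes first described around amyloid plaques, rose for 10 of 11 tested members (9 after centring, median 1.50). Trem2, a lipid-sensing receptor, had signals of 933, 1251 and 1011 in PBS TBI day 28 mice, against 235, 229.9 and 235 in sham mice, a log2 change of 2.18 ± 0.11 (SE, adjusted p = 2.03e-11). Its adaptor Tyrobp was measured at 1721, 2318 and 2006 in PBS TBI day 28 mice, against 496, 492 and 534 in sham mice. Cst7, a cathepsin inhibitor, was measured at 43.6, 75.2 and 66.2 in PBS TBI day 28 mice, against 14.2, 16.6 and 11.7 in sham mice, with a log2 change of 2.10 ± 0.25 (SE, adjusted p = 1.16e-06). Apoe, the main lipid carrier of the brain, was among the most strongly expressed genes of the panel, with 19906, 27012 and 20535 in PBS TBI day 28 mice, against 7918, 8195 and 7562 in sham mice and a log2 change of 1.50 ± 0.12 (SE, adjusted p = 6.56e-09). Csf1 (0.94), Axl (0.93) and Igf1 (0.74) rose less, and Fabp5 (0.46) was not called after centring (0.12). Ch25h, the cholesterol 25-hydroxylase, was the exception: it had 34.5, 53.01 and 25.9 in PBS TBI day 28 mice, against 22.8, 53.3 and 68.6 in sham mice and was not called (log2 change -0.27, adjusted p = 0.533).

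Genes that mark microglia in the healthy brain were mostly higher too. Of 12 tested members 10 rose (8 after centring, median 0.70) and none fell. The fractalkine receptor Cx3cr1 had 1692, 1822 and 1584 in PBS TBI day 28 mice, against 721, 724 and 798 in sham mice, a log2 change of 1.18 ± 0.10 (SE, adjusted p = 1.10e-08), while the purinergic receptor P2ry12 changed by 0.68 ± 0.11 (SE, adjusted p = 4.55e-05) and Csf1r, the receptor that microglia need to survive, by 0.86 ± 0.09 (SE, adjusted p = 1.69e-07). Cd33 (1.33), Fcrls (1.19) and Gpr34 (1.06) rose by more. Tmem119 was measured at 525, 610.0 and 532 in PBS TBI day 28 mice, against 406, 409 and 488 in sham mice, and its log2 change of 0.36 ± 0.09 (SE, adjusted p = 0.00345) was 0.02 and not called after centring, as was that of the transcription factor Sall1 (0.37, 0.03 after centring). The fructose transporter Slc2a5 (log2 change 0.18, adjusted p = 0.252) and the phagocytic receptor Mertk (0.14, adjusted p = 0.322) were not called on the authors' scaling either. The summed signal of the markers Tmem119, P2ry12 and Cx3cr1 was 2815 to 3089 in PBS TBI day 28 mice and 1600.4 to 1624 in sham mice.

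Fc gamma receptors and the kinases and adaptors they signal through rose for 13 of 13 tested members (10 after centring, median 1.24). The inhibitory receptor Fcgr2b was measured at 708, 976 and 797 in PBS TBI day 28 mice, against 168, 151 and 327 in sham mice, a log2 change of 2.02 ± 0.21 (SE, adjusted p = 2.52e-07). The shared gamma chain Fcer1g had 533, 639 and 516 in PBS TBI day 28 mice, against 195, 173 and 228 in sham mice, and the high-affinity receptor Fcgr1 266, 356 and 256 in PBS TBI day 28 mice, against 123, 106 and 141 in sham mice. Downstream, the phosphatase Ptpn6 (1.50), the exchange factor Vav1 (1.27) and the kinase Btk (1.26) rose by more than the kinase Syk (0.63), whose log2 change was 0.29 and not called after centring. Inhibitory receptors and genes of sialic acid sensing gave 12 of 14 members higher and 1 lower (10 and 1 after centring). Siglecf was measured at 57.8, 62.6 and 59.5 in PBS TBI day 28 mice, against 14.9, 16.6 and 20.1 in sham mice, and its log2 change was 1.81 ± 0.18 (SE, adjusted p = 1.50e-07). Cd47, the signal that restrains phagocytes, was the member that fell, by a log2 change of -0.10, and Cd244a was not called (0.55, adjusted p = 0.0737). The call of Cd47 was lost without PBS TBI day 28 replicate 1, 2 or 3 or sham replicate 1 or 3 (log2 change -0.11 to -0.08, adjusted p 0.0517 to 0.167).

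Most antigen presentation and lysosomal genes rose, and lipid genes had no direction that both scalings share. Of the antigen presentation list 6 of 8 rose and 1 fell (5 and 1 after centring). Cd74, the chaperone of MHC class II, was measured at 744, 917 and 839 in PBS TBI day 28 mice, against 200.5, 201 and 224 in sham mice, a log2 change of 1.996 ± 0.24 (SE, adjusted p = 1.16e-06). Ctss, the protease that cleaves it, was measured at 4093, 5399.9 and 4196 in PBS TBI day 28 mice, against 1159.6, 1166 and 1535 in sham mice, a log2 change of 1.83 ± 0.13 (SE, adjusted p = 2.23e-09). Psmb8, a subunit of the immunoproteasome, changed by 1.55 ± 0.14 (SE, adjusted p = 4.41e-08). H2-T23, a non-classical MHC class I gene with close relatives that a probe may not separate, fell, with 1095, 1104 and 1102 in PBS TBI day 28 mice, against 1256, 1232 and 1208 in sham mice and a log2 change of -0.16 ± 0.05 (SE, adjusted p = 0.0123), and Cd40 was not called (0.20, adjusted p = 0.321). Of 20 genes of lysosomes and phagocytosis 16 rose and none fell, against 10 higher and 1 lower after centring (median 0.60). Besides Ctss, the largest changes were those of the exchange factor Dock2 (1.45) and cathepsin E, Ctse (1.24). Grn, encoding the lysosomal protein progranulin, had 1257, 1640.3 and 1362 in PBS TBI day 28 mice, against 720.1, 707 and 816 in sham mice. Rac2, Pla2g5, Mertk and the proton pump subunit Atp6v1a were not called. Of 10 lipid genes 6 rose and 1 fell (2 each after centring), beside 44.5% and 8.11% of all tested probes (21.2% and 38% after centring). The largest rises were those of Apoe and of Hpgds (1.29), a prostaglandin D synthase. The member that fell was Ptgs2, the inducible cyclooxygenase, which neurons transcribe with activity: it was measured at 144, 153 and 136 in PBS TBI day 28 mice, against 296, 294 and 421 in sham mice, a log2 change of -1.20 ± 0.15 (SE, adjusted p = 1.90e-06).

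Interferon response genes rose by moderate amounts. Type I interferons act through a receptor pair, Ifnar1 and Ifnar2, and a transcription factor complex that binds the interferon-stimulated response element in promoters of target genes. Of 22 tested members 17 rose and 1 fell, against 10 and 3 after centring (median 0.63). The chemokine Cxcl10 had the largest change, with 93.3, 88.7 and 87.3 in PBS TBI day 28 mice, against 23.6, 23.6 and 21.8 in sham mice and a log2 change of 1.97 ± 0.22 (SE, adjusted p = 4.96e-07). Irf8, a regulator of the myeloid lineage, had 199.8, 247 and 203 in PBS TBI day 28 mice, against 65.2, 62.1 and 61.95 in sham mice, a log2 change of 1.77 ± 0.12 (SE, adjusted p = 1.83e-09). Next came Slfn8 (1.50), the guanylate-binding protein Gbp2 (1.30) and Siglec1 (1.15), the sialic acid receptor of macrophages. Irf7, which amplifies the response, was measured at 86.2, 101 and 88.2 in PBS TBI day 28 mice, against 45.6, 62.1 and 40.2 in sham mice, a log2 change of 0.92 ± 0.19 (SE, adjusted p = 5.65e-04), and the antiviral gene Rsad2 at 135, 119.5 and 109 in PBS TBI day 28 mice, against 70.8, 64.7 and 61.1 in sham mice, a log2 change of 0.89 ± 0.19 (SE, adjusted p = 8.30e-04). Irf2, an antagonist of the response, changed by -0.15 ± 0.06 (SE, adjusted p = 0.0278). The call of Irf2 was lost without PBS TBI day 28 replicate 1, 2 or 3 or sham replicate 1 or 3 (log2 change -0.16 to -0.10, adjusted p 0.0548 to 0.156). Sting1 (0.54, adjusted p = 0.0513) and Irf4 (0.37, adjusted p = 0.238) were not called. Irf3 (0.05) and Ifnar1 (0.03) were not called either, but fell after centring (-0.29 and -0.31).

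Promoters of these genes, taken from RefSeq (GRCm38.p6) as 250 bases before to 50 after the annotated start, were searched for GAAA, any 2 bases and GAAA again, or its complement TTTC, any 2 bases and TTTC, the core of the interferon-stimulated response element on either strand. A promoter was at hand for 19 of the 22 genes, and 10 of those held a match, against 3.99% of all 27025 genes and 7.39% of 555 panel genes with such a window. Of the members with larger changes named above, Cxcl10, Slfn8, Gbp2 and Rsad2 held a match and Irf8 and Irf7 held none, while no promoter was at hand for Siglec1. Irf2, the member that fell, held a match too. Shown are 5 windows that lie wholly before the annotated start, printed on the strand of the gene with the match in capitals. The window of Slfn8 lies before the start as well but is not shown.
Cxcl10: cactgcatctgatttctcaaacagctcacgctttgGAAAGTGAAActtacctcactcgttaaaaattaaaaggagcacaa
Gbp2: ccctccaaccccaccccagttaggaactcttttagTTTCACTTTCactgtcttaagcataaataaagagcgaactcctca
Rsad2: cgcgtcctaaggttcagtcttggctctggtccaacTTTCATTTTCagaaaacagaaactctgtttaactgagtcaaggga
Ifitm2: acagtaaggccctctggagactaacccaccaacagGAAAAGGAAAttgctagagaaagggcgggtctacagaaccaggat
Irf2: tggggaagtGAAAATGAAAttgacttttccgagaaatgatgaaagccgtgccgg
The windows lie at chr5:92349058-92349137, minus strand (Cxcl10), chr3:142620569-142620648, plus strand (Gbp2), chr12:26456528-26456607, minus strand (Rsad2), chr7:140955963-140956042, minus strand (Ifitm2) and chr8:46739495-46739548, plus strand (Irf2). Ifitm2, a membrane protein that blocks viral entry, had a log2 change of 0.48 ± 0.14 (SE, adjusted p = 0.00699), or 0.14 and not called after centring. A match describes letters and not a binding site. The element TGACGTCA, the cAMP response element, was searched for in the same way before the activity-regulated genes described below: 0 of the 6 with a promoter at hand held it in this window, against 2.03% of all genes, and no promoter of the interferon list held both motifs.

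**Figure D3:**
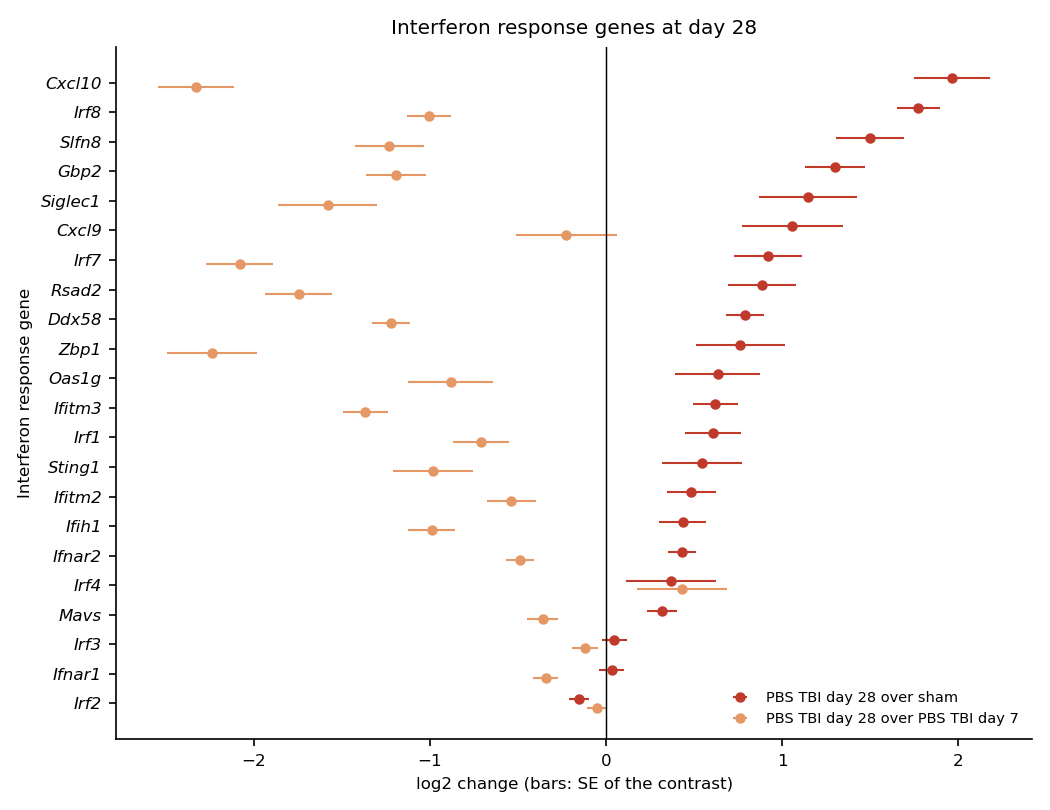
Log2 changes of the 22 interferon response genes in PBS TBI day 28 mice over sham mice (red) and over PBS TBI day 7 mice (orange), with bars for the standard error of the contrast. Cxcl10 lies 1.97 above sham and 2.33 below day 7, and Irf2 at the foot of the plot lies below sham.

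Cytokine genes rose for 13 of 19 tested members and fell for 1 (12 and 1 after centring, median 0.94). The macrophage chemokine Ccl3 was measured at 129.8, 155 and 138 in PBS TBI day 28 mice, against 18.9, 30.6 and 29.3 in sham mice, a log2 change of 2.45 ± 0.18 (SE, adjusted p = 2.92e-09). Ccl2, which recruits monocytes, had 97.4, 136 and 86.3 in PBS TBI day 28 mice, against 25.9, 15.7 and 27.6 in sham mice, a log2 change of 2.22 ± 0.30 (SE, adjusted p = 4.82e-06), and Ccl5 had 37.5, 70.3 and 41.2 in PBS TBI day 28 mice, against 15.7, 12.2 and 8.37 in sham mice, a log2 change of 2.03 ± 0.34 (SE, adjusted p = 5.15e-05). Tnf (37.5, 39.5 and 40.3 in PBS TBI day 28 mice, against 22.01, 13.99 and 24.3 in sham mice) and Il1a (32.5, 40.5 and 51.8 in PBS TBI day 28 mice, against 15.7, 16.6 and 24.3 in sham mice) rose by log2 changes of 0.999 and 1.14 at low signals, whereas Il1b had 27.4, 33.7 and 25.9 in PBS TBI day 28 mice, against 29.9, 25.4 and 19.2 in sham mice and was not called (0.24, adjusted p = 0.636). Il1rn, Tnfsf8, Tnfsf13b and Il3 were not called either. Cx3cl1, the neuronal ligand of Cx3cr1, fell: it had 1562, 1528 and 1608 in PBS TBI day 28 mice, against 2230.4, 2097 and 2218 in sham mice, a log2 change of -0.48 ± 0.05 (SE, adjusted p = 5.94e-07). Among the receptors 17 of 29 rose and 1 fell (12 and 4 after centring), beside 44.5% and 8.11% of all tested probes (21.2% and 38% after centring). The largest rises were those of Il3ra (1.87), Csf3r (1.53) and Csf2rb (1.48), receptors for colony-stimulating factors and interleukin 3. Tnfrsf25, a death domain receptor of the tumor necrosis factor family, fell by more than any other gene outside the activity-regulated ones, with 75.1, 93.5 and 104 in PBS TBI day 28 mice, against 369, 267 and 329 in sham mice and a log2 change of -1.83 ± 0.19 (SE, adjusted p = 2.10e-07). Of 14 scavenger and pattern recognition receptors 9 rose and none fell, against 4 higher and 1 lower after centring, led by Tlr2 (50.7, 78.1 and 74.8 in PBS TBI day 28 mice, against 17.3, 13.99 and 19.2 in sham mice, log2 change 1.997) and the scavenger receptor Msr1 (1.48). Irak3, Nod1, Cd163, Marco and Irak2 were not called.

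Genes common to reactive astrocytes in several injury models rose for 10 of 11 members (8 after centring, median 1.59). After Serpina3n, the intermediate filament gene Vim was measured at 2128, 2991 and 2313 in PBS TBI day 28 mice, against 561, 588 and 531 in sham mice, a log2 change of 2.13 ± 0.13 (SE, adjusted p = 4.25e-10). Timp1, an inhibitor of metalloproteinases, changed by 1.59 ± 0.29 (SE, adjusted p = 1.72e-04), S1pr3 by 1.25 ± 0.16 (SE, adjusted p = 1.80e-06) and the hyaluronan receptor Cd44 by 0.99 ± 0.19 (SE, adjusted p = 2.41e-04), and Hspb1 was not called (0.28, adjusted p = 0.113). Lcn2, an iron-binding protein of reactive astrocytes and neutrophils, had 1239, 3317 and 1171 in PBS TBI day 28 mice, against 34.6, 168 and 2687 in sham mice, so that the 16-week sham sample lay above 2 of the injured samples. Its log2 change was 2.76 ± 0.998 (SE, adjusted p = 0.0273). Lcn2 was not called without PBS TBI day 28 replicate 2 or sham replicate 1 or 2 (log2 change 1.33 to 2.47, adjusted p 0.0844 to 0.219). Without sham replicate 3, the 16-week sample, it was 4.47, and against that sample alone -0.67 and not called. Cd14, a co-receptor for endotoxin, had the same overlap, with 147, 124 and 115 in PBS TBI day 28 mice, against 43.2, 34.96 and 146 in sham mice. Its log2 change was 1.08 ± 0.34 (SE, adjusted p = 0.0129), or 1.72 without sham replicate 3, and was not called after centring (0.74). The call of Cd14 was lost without sham replicate 1 or 2 (log2 change 0.69 to 0.84, adjusted p 0.0747 to 0.0979). Osmr, the oncostatin M receptor, had 223, 216 and 229 in PBS TBI day 28 mice, against 98.3, 86.5 and 257 in sham mice. Its log2 change was 0.78 ± 0.27 (SE, adjusted p = 0.0196), or 1.27 without sham replicate 3, and was not called after centring (0.44). Without PBS TBI day 28 replicate 3 or sham replicate 1 or 2, Osmr was not called (log2 change 0.49 to 0.76, adjusted p 0.0517 to 0.136). Against the 16-week sham sample alone, Cd14 (-0.19) and Osmr (-0.21) were not called. Of the lists once proposed for a neurotoxic (A1) and a protective (A2) astrocyte, 5 of 8 and 9 of 11 rose and 1 fell in each (4 and 5 higher, 1 lower in each, after centring). The members that fell were H2-T23 and Ptgs2, given above, and the largest rises were those of Psmb8 and Serping1 for A1 and of Tgm1 and Cd109 (1.45) for A2. Amigo2, Fkbp5 and Slc10a6 were not called. Of the genes of resting astrocytes 5 of 10 rose on the authors' scaling, close to the 44.5% of all tested probes, against 3 higher and 4 lower after centring. The largest rises were those of Entpd2 (0.72), which degrades extracellular ATP, and the transcription factor gene Sox9 (0.66). The gap junction gene Gja1 had 7909, 7917 and 8351 in PBS TBI day 28 mice, against 5893, 5549 and 5672 in sham mice, a log2 change of 0.50 ± 0.07 (SE, adjusted p = 1.16e-05) that was 0.16 and not called after centring, and the potassium channel gene Kcnj10 was not called (0.07, adjusted p = 0.573) but fell after centring (-0.27). Egfr, Aldh1l1, Nwd1 and Agt were not called on the authors' scaling.

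Genes of matrix and proteases rose for 13 of 15 members and fell for none, against 7 higher and 1 lower after centring (median 0.67). After Mmp12 and Timp1 came the pentraxin Ptx3, measured at 45.6, 80.95 and 75.8 in PBS TBI day 28 mice, against 23.6, 25.4 and 25.9 in sham mice, a log2 change of 1.39 ± 0.29 (SE, adjusted p = 6.80e-04). The integrin chain Itgb5 (0.92) and Serpinf1 (0.61) rose under both scalings, and Lrg1 and Adamts16 were not called.

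Monocyte and macrophage genes rose, whereas most T and NK cell genes were not called. Of all tested probes 44.5% rose and 8.11% fell, or 21.2% and 38% after centring. Of 12 monocyte and macrophage genes 11 rose, also after centring (median 1.09). The adhesion receptor Cd84 had 356, 533 and 401 in PBS TBI day 28 mice, against 108, 78.7 and 111 in sham mice, a log2 change of 2.11 ± 0.17 (SE, adjusted p = 6.33e-09), and its relative Slamf9 had 115, 137 and 126 in PBS TBI day 28 mice, against 25.2, 42.8 and 27.6 in sham mice. Ccr2, the receptor for Ccl2 on inflammatory monocytes, was measured at 44.6, 79.03 and 68.1 in PBS TBI day 28 mice, against 25.9, 29.7 and 32.6 in sham mice, a log2 change of 1.08 ± 0.31 (SE, adjusted p = 0.0076). Cd163, a scavenger receptor of border macrophages, had 57.8, 81.9 and 71.9 in PBS TBI day 28 mice, against 58.96, 55.9 and 65.3 in sham mice and was not called (0.22, adjusted p = 0.343). Of 18 T and NK cell genes 4 rose and none fell, but only Lag3 did so after centring. Lag3, which microglia as well as T cells can transcribe, was measured at 336, 484 and 483 in PBS TBI day 28 mice, against 85.7, 68.2 and 82.04 in sham mice, a log2 change of 2.45 ± 0.13 (SE, adjusted p = 5.09e-11). The T cell receptor complex stayed close to the filter of 20. Cd3e had 29.4, 27.9 and 19.2 in PBS TBI day 28 mice, against 15.7, 11.4 and 15.1 in sham mice, a log2 change of 0.85 ± 0.28 (SE, adjusted p = 0.0166) that was not called after centring (0.51). Cd3e was not called without PBS TBI day 28 replicate 1 or 2 or sham replicate 2 (log2 change 0.70 to 0.77, adjusted p 0.0578 to 0.0752). Cd3d had 27.4, 14.5 and 12.5 in PBS TBI day 28 mice, against 10.2, 22.7 and 10.1 in sham mice and was not called. The summed signal of the 6 T and NK markers, of which Cd8a and Ncr1 lay below the filter, was 126 to 139.99 in PBS TBI day 28 mice and 85.4 to 97.0 in sham mice. Of 7 B cell genes 3 rose, close to the 44.5% of all tested probes. They were Fcrla (0.62), Blnk (0.62) and Spib (0.53), and none of them rose after centring. The call of Fcrla was lost without PBS TBI day 28 replicate 1, 2 or 3 or sham replicate 1, 2 or 3 (log2 change 0.58 to 0.68, adjusted p 0.0517 to 0.0882). The call of Spib was lost without PBS TBI day 28 replicate 1 or 2 or sham replicate 1, 2 or 3 (log2 change 0.45 to 0.57, adjusted p 0.0559 to 0.128).

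**Figure D4:**
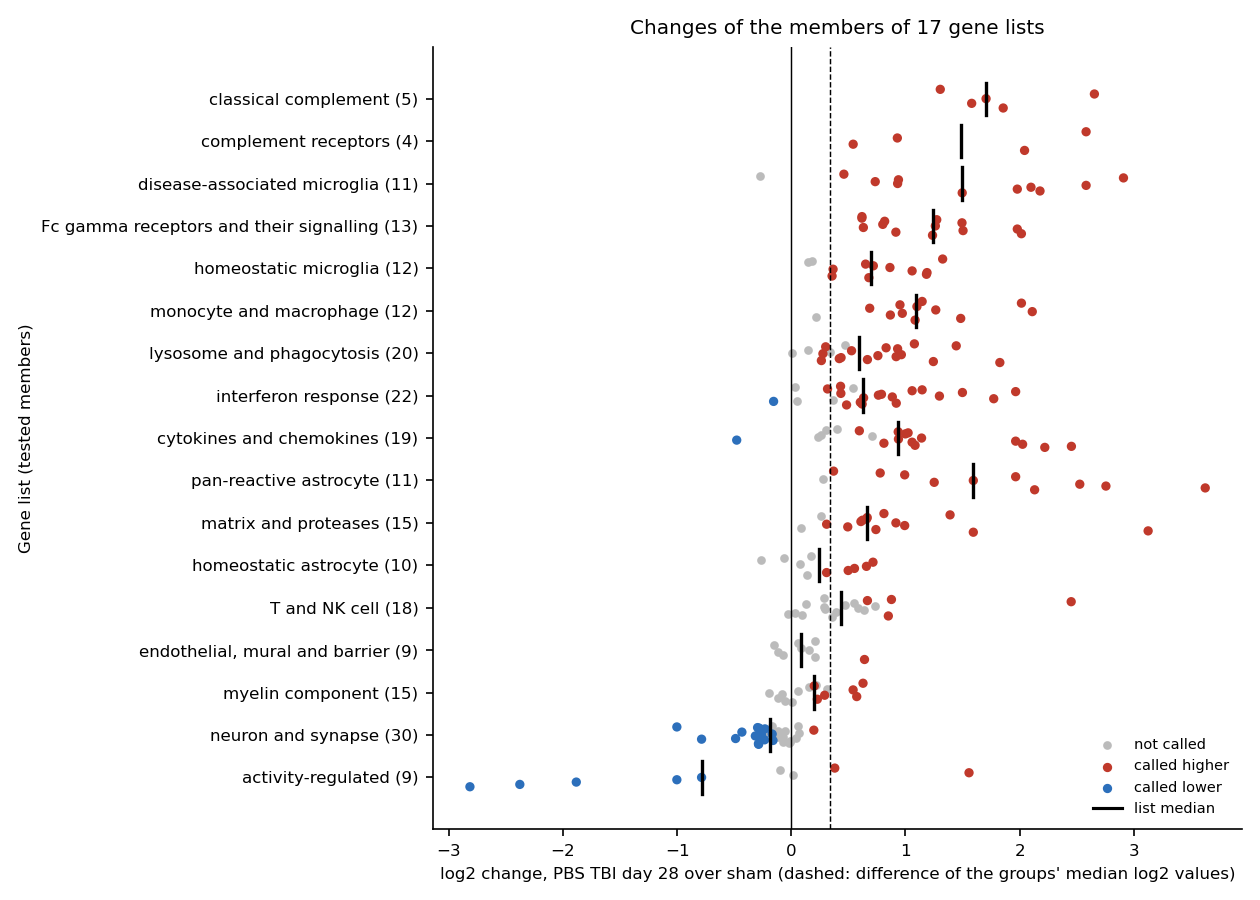
Log2 change of PBS TBI day 28 over sham for each tested member of 17 gene lists, 1 list a row with the number of tested members in brackets. Red and blue points are members called higher and lower, grey points were not called, black lines are list medians and the dashed line is at 0.34; the medians of the complement and microglial lists lie to its right and those of the neuronal and activity-regulated lists to the left of 0, with single members on the other side, such as Ch25h at -0.27 and Atf3 at 1.56.

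The strongest falls were those of genes that neurons transcribe with activity. Arc, an organizer of receptor trafficking at synapses, had signals of 345, 288 and 416 in PBS TBI day 28 mice, against 2583, 2136 and 2612 in sham mice. It was 7.04-fold lower, a log2 change of -2.81 ± 0.28 (SE, adjusted p = 1.59e-07). The transcription factor gene Fos was measured at 217, 205 and 282 in PBS TBI day 28 mice, against 1105, 1108 and 1441 in sham mice, a log2 change of -2.38 ± 0.24 (SE, adjusted p = 1.32e-07). Egr1 was measured at 1784, 1543 and 1885 in PBS TBI day 28 mice, against 6598, 6087 and 6484 in sham mice, a log2 change of -1.88 ± 0.19 (SE, adjusted p = 2.23e-07). Bdnf, a neurotrophin, had 275, 267 and 309 in PBS TBI day 28 mice, against 586, 576 and 539 in sham mice, a log2 change of -1.002 ± 0.11 (SE, adjusted p = 5.21e-07), and the synaptic scaffold gene Homer1 3077, 2904 and 3079.8 in PBS TBI day 28 mice, against 5381, 4889 and 5358 in sham mice, a log2 change of -0.79 ± 0.09 (SE, adjusted p = 5.94e-07). These 5 genes were named from called probes with separate groups, and 61.9% of all tested probes had separate groups. Centring lowers every log2 change by 0.34, so it made these falls larger. The list as a whole gave 5 of 9 members lower and 2 higher (7 and 1 after centring). The exceptions were Atf3, a stress-induced factor, with 83.2, 135 and 113 in PBS TBI day 28 mice, against 29.9, 33.2 and 50.2 in sham mice and a log2 change of 1.56 ± 0.25 (SE, adjusted p = 3.35e-05), and Myc (0.38, or 0.04 and not called after centring). Myc was not called without PBS TBI day 28 replicate 1 or 2 or sham replicate 1 or 2 (log2 change 0.28 to 0.37, adjusted p 0.0687 to 0.139). Jun (-0.10) and Creb1 (0.02) were not called on the authors' scaling but fell after centring (-0.44 and -0.32), and Crem, a cAMP-responsive regulator outside that list, changed by -0.43 ± 0.10 (SE, adjusted p = 0.00192).

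Structural genes of neurons and synapses fell by small amounts. Of 30 tested members 16 fell and 1 rose, against 28 lower and none higher after centring, with a median log2 change of -0.18, or -0.53 after centring. After Bdnf and Homer1, the postsynaptic scaffold gene Shank3 was measured at 1140.2, 1017 and 1241 in PBS TBI day 28 mice, against 1579, 1544 and 1627 in sham mice, a log2 change of -0.49 ± 0.09 (SE, adjusted p = 1.19e-04), and the calmodulin-binding gene Nrgn changed by -0.43 ± 0.09 (SE, adjusted p = 6.67e-04). The neuronal nuclear marker Rbfox3 had 3331, 3493 and 3370.4 in PBS TBI day 28 mice, against 4150.3, 4077 and 4199.8 in sham mice, a log2 change of -0.29 ± 0.06 (SE, adjusted p = 4.60e-04), and the neurofilament gene Nefl changed by -0.29 ± 0.08 (SE, adjusted p = 0.00513). Of the glutamate receptor genes Grin2a (-0.31) and Grin2b (-0.29) fell, whereas Gria1 (0.04) and Gria2 (-0.07) were not called on the authors' scaling, and both fell after centring (-0.30 and -0.41). The call of Grin2a was lost without PBS TBI day 28 replicate 3 or sham replicate 3 (log2 change -0.25 to -0.25, adjusted p 0.0845 to 0.0905). The synaptic vesicle gene Syp (-0.01) and the vesicular transporter genes Slc17a7 (-0.20) and Slc17a6 (0.07) were not called either, of which Syp (-0.35) and Slc17a7 (-0.54) fell after centring. The 1 member that rose, Cntnap2, had a log2 change of 0.20 that was -0.14 and not called after centring. Without PBS TBI day 28 replicate 3 or sham replicate 1, Cntnap2 was not called (log2 change 0.18 to 0.18, adjusted p 0.0505 to 0.0548). The summed signal of 4 neuron markers was 14713 to 14804 in PBS TBI day 28 mice and 17354 to 18019.9 in sham mice. Genes of immature neurons were not called in either direction (0 of 6), and 3 of them fell after centring.

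Oligodendrocyte genes moved little. Of 15 myelin genes 6 rose and none fell on the authors' scaling, but 1 rose and 6 fell after centring, so the list has no direction that both scalings share. Pmp22, a myelin protein best known from peripheral nerve, rose under both, with 474, 505 and 449 in PBS TBI day 28 mice, against 327, 301 and 296 in sham mice and a log2 change of 0.63 ± 0.09 (SE, adjusted p = 8.33e-06). Opalin, a membrane protein of mature oligodendrocytes, had 1288, 986 and 1212 in PBS TBI day 28 mice, against 866, 901 and 599 in sham mice, a log2 change of 0.57 ± 0.17 (SE, adjusted p = 0.00867) that was 0.23 and not called after centring. Opalin was not called without sham replicate 3 (log2 change 0.39, adjusted p = 0.0637). Mog (0.01, adjusted p = 0.93) and Mag (-0.05, adjusted p = 0.63) were not called, and both fell after centring (-0.33 and -0.39). Ninj2, Enpp6, Bcas1, Gal3st1, Fa2h, Mal and Ugt8a were not called on the authors' scaling either. Of the oligodendrocyte lineage list 4 of 6 rose and 1 fell (0 and 2 after centring). The member that fell under both was Lingo1, a neuronal and oligodendroglial inhibitor of myelination, with 2255, 2296 and 2259.7 in PBS TBI day 28 mice, against 3394, 3412 and 3395 in sham mice and a log2 change of -0.58 ± 0.08 (SE, adjusted p = 6.13e-06). Of 9 vascular genes 1 rose, against 0 higher and 3 lower after centring: the tight junction gene Cldn5 had 1298, 969 and 1134 in PBS TBI day 28 mice, against 748, 714 and 709.9 in sham mice, a log2 change of 0.64 ± 0.14 (SE, adjusted p = 7.28e-04), or 0.30 and not called after centring. The uncalled members included Pecam1 (0.21), Flt1 (-0.11) and Nostrin (-0.15).

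For lists of broadly expressed genes the direction depended on the scaling, as it did over all tested probes. Of those 44.5% rose and 8.11% fell, against 21.2% and 38% after centring. Ribosomal protein genes, a list added after the panel's gene names had been read, rose for 8 of 9 members with a median of 0.20, led by Rps9 (0.31, -0.03 after centring) and Rps3 (0.29, -0.05 after centring), while 5 of 9 fell after centring and Rpl36al was not called. Of 53 chromatin regulators 7 rose and 6 fell, against 0 higher and 43 lower after centring, and the widest changes were those of Kdm4d (0.75) and Dnmt3b (0.48). The call of Dnmt3b was lost without PBS TBI day 28 replicate 1 or 3 or sham replicate 1, 2 or 3 (log2 change 0.38 to 0.51, adjusted p 0.0658 to 0.15). DNA repair genes gave 12 of 41 higher and none lower, against 1 and 16 after centring, where Mgmt, which removes alkyl groups from guanine, was the 1 that rose (1.24 on the authors' scaling). Apoptosis genes gave 20 of 43 higher and 3 lower, close to the shares of all tested probes, against 4 and 19 after centring. Within that list Bcl2a1a (2.60) and the inflammatory caspases Casp4 (1.38) and Casp1 (0.86) rose under both scalings. Of 23 cell cycle genes 7 rose and 2 fell (1 and 6 after centring). The cell cycle inhibitor Cdkn1a, a p53 target, fell under both, with 279, 278 and 214 in PBS TBI day 28 mice, against 450.5, 335 and 592 in sham mice and a log2 change of -0.81 ± 0.20 (SE, adjusted p = 0.00226), and its relative Cdkn1c rose by 0.58. Of 16 stress and redox genes 6 rose and 4 fell (4 and 8 after centring). Hmox1, which degrades haem, was measured at 146, 177 and 133 in PBS TBI day 28 mice, against 81.8, 79.5 and 79.5 in sham mice, a log2 change of 0.91 ± 0.17 (SE, adjusted p = 1.44e-04), and the angiogenic factor gene Vegfa changed by -0.43 ± 0.13 (SE, adjusted p = 0.00875). Nfkbia, the inhibitor of NF-kB that the pathway itself induces, changed by -0.42 ± 0.17 (SE, adjusted p = 0.0451). The call of Nfkbia was lost without PBS TBI day 28 replicate 1, 2 or 3 or sham replicate 2 or 3 (log2 change -0.46 to -0.32, adjusted p 0.0578 to 0.163).

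Classical complement genes and most interferon response genes were lower at day 28 than at day 7, while the direction over all tested probes depended on the scaling. These comparisons share the day 28 samples with the one above. Setting PBS TBI day 28 against PBS TBI day 7, limma called 334 probes, 45 higher (6.08%) and 289 lower (39.1%), or 346 higher and 125 lower after centring, as the median log2 value was 0.39 higher in day 7 samples. Classical complement was below its day 7 level for 5 of 5 members (4 after centring): C4a was measured at 1852, 2165 and 1739 in PBS TBI day 28 mice, against 3215, 3907 and 3212 in day 7 mice, a log2 change of -0.84 ± 0.13 (SE, adjusted p = 4.68e-05), and C1qa at 3240.0, 4234 and 3509 in PBS TBI day 28 mice, against 8703, 7148 and 7266 in day 7 mice, a log2 change of -1.08 ± 0.14 (SE, adjusted p = 4.01e-06). Of the 4 complement receptors 3 were lower than at day 7 and none was higher, against 3 lower and 1 higher after centring. Interferon response genes gave 18 of 22 members lower than at day 7 (12 lower and 3 higher after centring). Irf7 was measured at 86.2, 101 and 88.2 in PBS TBI day 28 mice, against 551, 322 and 328 in day 7 mice, a log2 change of -2.08 ± 0.19 (SE, adjusted p = 1.26e-07). Cxcl10 (-2.33) and Zbp1 (-2.24), a sensor of nucleic acids, had the other large falls, and Ccl5 (-1.81), Cd72 (-1.99), Msr1 (-1.79) and Hmox1 (-2.02) were also among the 8 lowest. Itgax was not called against day 7, with 61.9, 92.5 and 93.99 in PBS TBI day 28 mice, against 71.4, 59.7 and 80.7 in day 7 mice (log2 change 0.22, adjusted p = 0.366), but was higher after centring (0.60). Arc (-0.27, adjusted p = 0.465) and Egr1 (-0.22, adjusted p = 0.375) were not called. Fos was lower than at day 7, by a log2 change of -0.72 ± 0.24 (SE, adjusted p = 0.0173), or -0.33 and not called after centring. Fos was not called without PBS TBI day 28 replicate 1 or 2 or PBS TBI day 7 replicate 3 (log2 change -0.67 to -0.40, adjusted p 0.0587 to 0.134). Bdnf was higher, with 275, 267 and 309 in PBS TBI day 28 mice, against 209.9, 202 and 232 in day 7 mice and a log2 change of 0.40 ± 0.11 (SE, adjusted p = 0.00631). Neuron and synapse genes gave 11 of 30 members higher and 2 lower (29 and 0 after centring).

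The largest rise against day 7 was that of Ttr, which encodes the thyroid hormone carrier transthyretin and is transcribed in the brain by the choroid plexus. Ttr had 3219, 3195 and 3154 in PBS TBI day 28 mice, against 1056, 308 and 1547 in day 7 mice, a log2 change of 2.003 ± 0.36 (SE, adjusted p = 1.82e-04). The 3 day 28 samples lay close together, while the day 7 samples were spread widely, and without PBS TBI day 7 replicate 2 the log2 change was 1.32. Against sham mice, with 2406, 3162 and 2152, Ttr was not called (0.33, adjusted p = 0.475), and it is the only choroid plexus marker on the panel by name, so the part of choroid plexus in the dissected tissue was not tested. Opalin was higher than at day 7 as well, with 1288, 986 and 1212 in PBS TBI day 28 mice, against 855, 658 and 799.7 in day 7 mice and a log2 change of 0.59 ± 0.17 (SE, adjusted p = 0.00785), and the NMDA receptor gene Grin2a changed by 0.36 ± 0.11 (SE, adjusted p = 0.00963). The call of Grin2a was lost without PBS TBI day 7 replicate 1 (log2 change 0.29, adjusted p = 0.055). The other 4 of the 8 highest had low signals and calls that depended on single libraries. Trpa1, a cation channel gene, had 20.3, 22.2 and 19.2 in PBS TBI day 28 mice, against 11.4, 12.2 and 10.2 in day 7 mice. Its log2 change was 0.87. Without PBS TBI day 28 replicate 1 or 2 or PBS TBI day 7 replicate 1 or 3, Trpa1 was not called (log2 change 0.80 to 0.88, adjusted p 0.0545 to 0.0733). Trp73 had a log2 change of 0.60. Trp73 was not called without PBS TBI day 28 replicate 1, 2 or 3 or PBS TBI day 7 replicate 2 or 3 (log2 change 0.49 to 0.63, adjusted p 0.0673 to 0.137). Kir3dl2, a member of a gene family with near-identical copies, had a log2 change of 0.57. The call of Kir3dl2 was lost without PBS TBI day 28 replicate 1 or 3 or PBS TBI day 7 replicate 2 or 3 (log2 change 0.49 to 0.55, adjusted p 0.06 to 0.0787). Spib, a lymphoid transcription factor gene, had a log2 change of 0.55. The call of Spib was lost without PBS TBI day 28 replicate 1 or 2 or PBS TBI day 7 replicate 1 or 3 (log2 change 0.46 to 0.57, adjusted p 0.0652 to 0.128).

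Against PBS TBI day 3, 332 probes were called, 101 higher (13.6%) and 231 lower (31.2%), or 298 and 127 after centring, which moved the groups by 0.26. The deepest fall was that of Hmox1, with 146, 177 and 133 in PBS TBI day 28 mice, against 2304, 2615 and 2862 in day 3 mice and a log2 change of -4.10 ± 0.17 (SE, adjusted p = 1.21e-12). The proliferation genes Top2a (51.7, 63.6 and 71.9 in PBS TBI day 28 mice, against 511, 469.5 and 527 in day 3 mice) and Rrm2 (35.5, 34.7 and 35.5 in PBS TBI day 28 mice, against 261, 235 and 315 in day 3 mice) fell by log2 changes of -3.02 ± 0.21 (SE, adjusted p = 2.80e-09) and -2.93 ± 0.18 (SE, adjusted p = 5.17e-10), and neither was called against sham. Cell cycle genes gave 15 of 23 members lower than at day 3 and none higher (11 lower and 3 higher after centring). Msr1 (-2.61), Tgm1 (-2.56), Timp1 (-2.53) and Ccl2 (-2.40) completed the named genes among the 8 lowest. Other genes were higher than at day 3. Itgax had 61.9, 92.5 and 93.99 in PBS TBI day 28 mice, against 28.8, 29.1 and 23.02 in day 3 mice, a log2 change of 1.60 ± 0.18 (SE, adjusted p = 1.47e-06), and Lag3 336, 484 and 483 in PBS TBI day 28 mice, against 193, 189 and 188 in day 3 mice, a log2 change of 1.17 ± 0.13 (SE, adjusted p = 1.19e-06). Apoe changed by 0.96 ± 0.12 (SE, adjusted p = 3.38e-06) and Cst7 by 1.11 ± 0.25 (SE, adjusted p = 0.00147). Tyrobp was lower (-0.66, -0.39 after centring), as was Trem2 on the authors' scaling alone (-0.33, -0.07 after centring). Trem2 was not called without PBS TBI day 28 replicate 1 or 3 or PBS TBI day 3 replicate 1 (log2 change -0.31 to -0.24, adjusted p 0.053 to 0.112). Cd3g, with 37.5, 33.7 and 25.9 in PBS TBI day 28 mice, against 11.3, 14.03 and 19.9 in day 3 mice, Ctse (1.05) and Ttr (1.05) complete the named genes among the 8 highest. The call of Ttr was lost without PBS TBI day 28 replicate 1, 2 or 3 or PBS TBI day 3 replicate 2 or 3 (log2 change 0.82 to 1.07, adjusted p 0.0507 to 0.117).

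**Figure D5:**
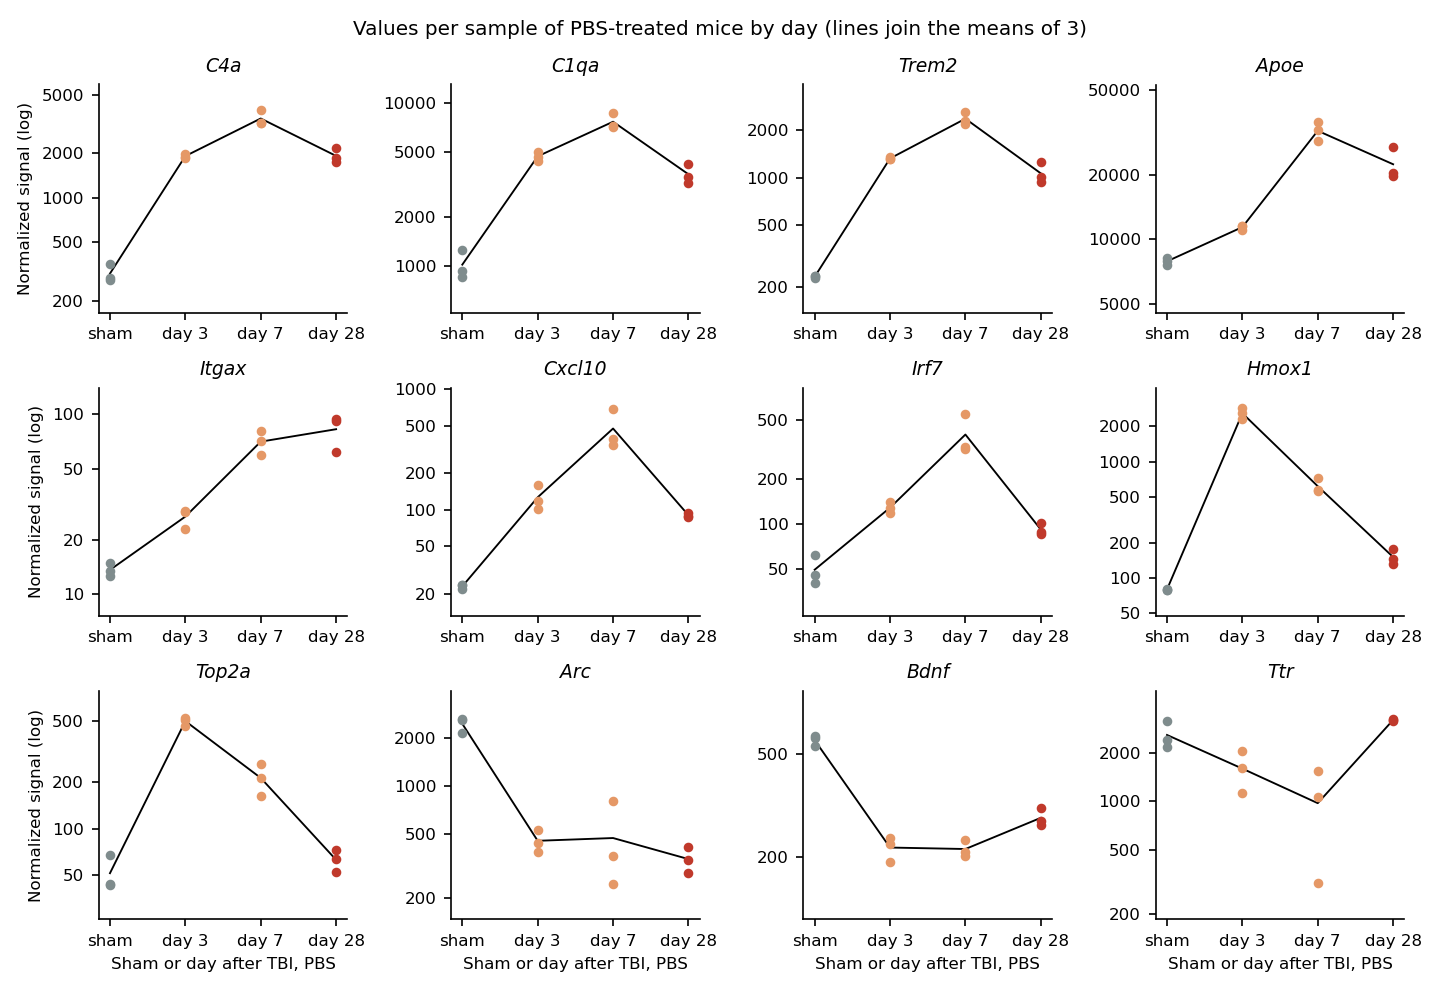
Normalized signal per sample on log axes for 12 genes in sham mice (grey), PBS TBI day 3 and day 7 mice (orange) and PBS TBI day 28 mice (red), with lines that join the means of 3. The highest mean lay at day 7 for Irf7 and at day 3 for Hmox1 and Top2a, and the day 28 samples of Itgax reached 94.0 against 80.7 at day 7, while those of Ttr lay above all day 7 samples.

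Of the probes without a paired symbol 23 of 53 rose and 4 fell (9 and 22 after centring). That was close to the shares of all tested probes, 44.5% and 8.11% (21.2% and 38% after centring). Among the probes without a symbol were the highest changes of all. The probe listed as probe_76 had 509, 1363 and 697 in PBS TBI day 28 mice, against 26.7, 27.97 and 22.6 in sham mice, a log2 change of 4.94 ± 0.38 (SE, adjusted p = 3.84e-09), and probe_148 had 276, 396 and 338 in PBS TBI day 28 mice, against 17.3, 20.1 and 10.1 in sham mice, a log2 change of 4.46 ± 0.22 (SE, adjusted p = 2.03e-11). The abundant probe_652 was measured at 5220.1, 9400.4 and 8893 in PBS TBI day 28 mice, against 938, 736 and 767 in sham mice, a log2 change of 3.23 ± 0.25 (SE, adjusted p = 3.93e-09). Genes often followed in brain injury such as C3, Gfap, Clec7a and Cd68 were not analysed here by name.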

How the data were processed

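RNA of the right hemisphere of 3 mice in each of 7 groups was hybridized to the nCounter Mouse Neuroinflammation panel. The deposited signal values are linear and were made by the authors in nSolver (version not given in the sources used here) from molecule counts, with scaling to housekeeping genes. The paper also names background thresholding, but the deposited values show no common floor. In sham replicate 1, for example, the lowest value was 2.36, and other probes had 5.50 and 6.29. Symbols came from the platform's probe annotation, and 703 of 757 probes had exactly 1.

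Log2 values, without an offset, of the 740 probes above 20 in at least 3 samples were fitted with limma 3.58.1 (R 4.3.3) as 7 group means over all 21 samples, with a mean-variance trend, and each contrast was adjusted by the Benjamini-Hochberg method over all 740. The authors tested in nSolver. Moderated limma was used here because single probes have 3 samples a group. The fit was tested on simulated data with independent noise for each probe. No shift shared by the probes of a sample was simulated, so the simulation does not bear on the choice of scaling. A second scaling centred each sample on its median log2 value. Counted molecules were recovered by dividing by each sample's step (whole within 0.0075 for at least 99.87% of values), and voom on these counts called 394 probes against sham.

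Against sham the 15 highest and 15 lowest changes among called probes with separate groups were named, and 8 each against day 7 and day 3. For each list its leading members and those not called or moving the other way were named, except that in lists of over 20 genes, and in the vascular, T and NK cell, B cell, neurogenesis and stress lists, uncalled members are mostly given as counts. Crem and Nfkbia come from the 15 lowest. Genes and lists were chosen with earlier results of these data known, and several lists share members. Promoters came from RefSeq windows of GRCm38.p6. Other processing alternatives included each library left out, and a sham group limited to the 16-week mouse.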

Additional observations from a re-analysis of the deposited data

Results flagged for a closer look

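Effects that differed between days after injury are listed here. In limma's contrast of PBS TBI day 28 with PBS TBI day 7, in which the sham level cancels, 334 probes differed, and 332 differed from PBS TBI day 3. Against day 7, the log2 changes of the genes named by the rule were 2.00 for Ttr, 0.87 for Trpa1, 0.60 for Trp73, 0.59 for Opalin, 0.57 for Kir3dl2, 0.55 for Spib, 0.40 for Bdnf and 0.36 for Grin2a on the higher side. On the lower side they were -2.33 for Cxcl10, -2.28 for probe_652, -2.24 for Zbp1, -2.08 for Irf7, -2.02 for Hmox1, -1.99 for Cd72, -1.81 for Ccl5 and -1.79 for Msr1.

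Against day 3 they were 2.08 for probe_76, 1.600 for Itgax, 1.17 for Lag3, 1.13 for Cd3g, 1.11 for Cst7, 1.10 for probe_148, 1.05 for Ctse and 1.05 for Ttr on the higher side. The lower side held Hmox1 at -4.10, Top2a at -3.02, Rrm2 at -2.93, probe_610 at -2.76, Msr1 at -2.61, Tgm1 at -2.56, Timp1 at -2.53 and Ccl2 at -2.40. Both contrasts share the day 28 samples, and day 28 mice alone had repeated PBS doses and were older, so time, dosing and age cannot be told apart. With 3 samples a group, single samples were not tested for standing apart.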

How the results depend on the processing

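Against sham, the count of 389 calls stayed within 1.5 times under limma without the trend, with only the compared groups, other filters, an offset, the replicate block and voom on recovered counts. Unmoderated Welch tests across all genes called 229 (196 higher, 33 lower), median-centring gave 157 higher and 281 lower, and the 16-week sham alone gave 258 (218 higher), of which 249 were shared with the 389, all in the same direction. Against day 7 the Welch tests called 131 (6 higher, 125 lower) and centring gave 346 higher and 125 lower. Against day 3 they called 114 (21 higher, 93 lower), and centring gave 298 higher and 127 lower. Leaving out single libraries gave 333 to 362 calls against sham (285 to 318 higher, 44 to 56 lower), 282 to 318 against day 7 (29 to 35 higher, 253 to 283 lower) and 266 to 295 against day 3 (65 to 88 higher, 198 to 218 lower). The 29 higher calls arose without PBS TBI day 7 replicate 1 or 2, and the 65 without PBS TBI day 28 replicate 3.

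Deviations of same-numbered samples from their group means correlated at -0.32 to 0.23, which does not exclude a pairing by number. In sham mice the number also follows age, as replicates 1, 2 and 3 were 12, 13 and 16 weeks old. With the number as a block, 378 probes were called against sham, 328 against day 7 and 326 against day 3. Adjusting only over probes with an unadjusted p under 0.05 lets every such probe pass. The resulting 377 calls against day 7 and 385 against day 3 are therefore the numbers of those probes.

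Among named genes against sham, centring turned the log2 change of Cntnap2 to -0.14, Creb1 to -0.32, Gria1 to -0.30, Ifnar1 to -0.31, Irf3 to -0.29, Kcnj10 to -0.27, Mog to -0.33, Rps3 to -0.053 and Rps9 to -0.026. The 16-week sham alone turned C5ar1 to -0.035, Cd14 to -0.19, Lcn2 to -0.67 and Osmr to -0.21. In that fit the lone sham sample is assumed to vary like the other groups. It ended the call of 23 other genes named against sham, of which 17 kept a log2 change within 1.5 times of the reported one, while Casp4, Crem, Ifitm2, Il1a, Myc and Tmem119 had smaller ones. The Welch tests, whose log2 changes are the same, ended 36 of 127 named calls against sham (adjusted p 0.0507 to 0.364), among them Itgam, Fcgr2b, P2ry12, Cd44, Msr1, Hmox1, Irf7 and Casp4, 12 of 19 against day 7 and 10 of 19 against day 3. The planned edgeR fit was not run, and voom took its place, chosen after the data were seen. T and B cell genes such as Cd3e and Cd3d lie near the filter of 20, where few molecules were counted.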
